A study of Mus musculus with 13 samples.

Results

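In this study 7 lysosomal genes were followed across wild type and R6/2 mouse brain: Psap, Ctsb, Ctsd, Ctsl, Lamp1, Lamp2 and Hexa. They were chosen by name, with earlier results of these data known, among them a treatment difference of a Psap probe set. All probe sets that the array annotation assigns to 1 of these 7 genes alone were taken, which gave 14 of the 12422 gene probe sets on the array. A filter on low signal kept 12 of the 14 and 7453 probe sets in all. The probe sets left out were 1 of 4 for Ctsb and 1 of 2 for Hexa, so every gene was still read by at least 1.

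RNA of whole brain hemispheres was hybridised to 13 Affymetrix MG-U74Av2 arrays, whose probe sets are groups of short oligonucleotides against 1 transcript. The arrays held 3 untreated wild type samples, 3 wild type samples given a triple drug treatment, 4 untreated R6/2 samples and 3 R6/2 samples given the same treatment. R6/2 mice carry exon 1 of human huntingtin with an expanded CAG repeat, as a transgene under the human promoter, and are a model of Huntington's disease. The treatment joined tacrine at 2.7 mg/kg per day from 5 weeks of age, moclobemide at 10 mg/kg per day and creatine at 1% of a wet mash. The sample descriptions name the drugs for all 13 samples, so a sample's treatment was taken from its title, and an age at harvest, 8 weeks, is stated for 1 untreated wild type sample. Nothing states that each array is a separate animal, so p-values measure the spread between these samples, which may be technical.

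Lysosomes are acidic compartments in which proteins, lipids and sugars are broken down. Their soluble enzymes are made in the secretory pathway, tagged with mannose 6-phosphate and carried to the lysosome by sorting receptors, while a proton pump, the V-ATPase, keeps the inside acidic. In brain they clear material from autophagy and endocytosis, and neurons depend on them because they do not divide. Prosaposin, encoded by Psap, is cut in the lysosome into saposins, small proteins that present sphingolipids to their hydrolases, and it is also secreted. Cathepsin D is an aspartic protease, and cathepsins B and L are cysteine proteases. Lamp1 and Lamp2 are heavily glycosylated proteins of the lysosomal membrane, and Hexa is the alpha subunit of beta-hexosaminidase A, which degrades the ganglioside GM2.

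Many lysosomal genes share a palindromic element around the letters CACGTG, which the transcription factor TFEB binds. The promoter windows of 4 members are shown because the members differ in these letters: Lamp1, Ctsd and Ctsl hold them and Psap does not. The windows are from RefSeq on GRCm38.p6, run from 250 bases before to 50 bases after an annotated start site, 5′ to 3′ on the gene's strand, and CACGTG is in capitals. For Lamp1, Ctsd and Psap as shown that site is the first base of the gene's span. For Ctsl it lies 252 bases inside the span, so the whole Ctsl window falls within the gene.
Lamp1, chr8:13158911-13159210, plus strand: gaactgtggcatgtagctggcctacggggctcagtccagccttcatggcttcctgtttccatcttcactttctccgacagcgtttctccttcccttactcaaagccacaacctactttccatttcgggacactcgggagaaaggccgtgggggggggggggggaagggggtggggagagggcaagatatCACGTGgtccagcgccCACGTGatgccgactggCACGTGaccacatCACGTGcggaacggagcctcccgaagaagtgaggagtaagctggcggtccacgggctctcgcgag
Ctsd, chr7:142387778-142388077, minus strand: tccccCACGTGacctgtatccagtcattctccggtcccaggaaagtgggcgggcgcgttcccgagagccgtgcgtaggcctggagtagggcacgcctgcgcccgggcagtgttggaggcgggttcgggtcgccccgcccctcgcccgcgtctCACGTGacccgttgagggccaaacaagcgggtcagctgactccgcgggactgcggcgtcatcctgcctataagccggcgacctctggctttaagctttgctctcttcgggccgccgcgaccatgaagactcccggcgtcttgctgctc
Ctsl, chr13:64370471-64370770, minus strand: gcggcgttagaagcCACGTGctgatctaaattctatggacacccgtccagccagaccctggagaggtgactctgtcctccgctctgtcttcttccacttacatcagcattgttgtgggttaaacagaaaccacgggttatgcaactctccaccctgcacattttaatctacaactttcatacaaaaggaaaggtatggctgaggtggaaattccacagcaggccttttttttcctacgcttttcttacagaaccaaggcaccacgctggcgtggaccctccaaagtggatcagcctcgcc
Psap, chr10:60277378-60277677, plus strand: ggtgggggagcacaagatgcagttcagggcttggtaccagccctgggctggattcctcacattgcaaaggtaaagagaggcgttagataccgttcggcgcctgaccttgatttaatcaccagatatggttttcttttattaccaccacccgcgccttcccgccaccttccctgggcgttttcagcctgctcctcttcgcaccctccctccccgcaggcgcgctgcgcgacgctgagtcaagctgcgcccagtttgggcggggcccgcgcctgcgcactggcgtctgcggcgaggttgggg
CACGTG reads the same on both strands. Lamp1 held 4 copies, whose first bases lay 15, 28, 45 and 61 bases upstream of the start. Ctsd held 2 copies, 98 and 245 bases upstream, and the nearer one lay within the longer palindrome TCACGTGA. Ctsl held 1 copy, 236 bases upstream of its internal start site and 16 bases downstream of the gene's 5′ end. Psap, in either of its 2 windows, Lamp2 and Hexa held none. Of all 32851 RefSeq windows of this length, 7.15% held CACGTG and 0.974% held TCACGTGA, which contains the shorter motif. Of the 89 genes with a window among 8 further lists of lysosomal genes, 25 (28.1%) held CACGTG, against 8.09% of all 27025 genes. A match describes the letters in the window and not a binding site.

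The arrays were alike in overall signal, with medians of 39.6 to 45.1. Untreated R6/2 arrays 2 and 3 stood apart from the other 11, with scores of 25.4 and 45.7 on the first principal component against -14.7 to 4.09. Values without them are given where they change a result. In all 66 control rows, untreated R6/2 arrays 2, 3 and 4 had 1.2 times the value of treated R6/2 array 1, treated R6/2 array 3 and untreated R6/2 array 1, in that order, at a tolerance of 0.05. The hemispheres carried neuronal RNA, with summed signals of 8278.2 to 10750.1 over 10 kept neuronal markers. These 10 include Snap25, Syt1 and Syp and are those of 12 listed that had a probe set of their own. In untreated mice 887 of 7453 probe sets, 11.9%, differed between genotypes in limma at a Benjamini-Hochberg adjusted p under 0.05, and in treated mice 59 did, 0.792%. Averaged over treatment 493 did, 6.61%. The count was 0 (0.0%) for treatment in R6/2 mice, in wild type mice and averaged over genotype, and 0 (0.0%) for the interaction of treatment and genotype, with 1262, 769, 936 and 1003 at an unadjusted p under 0.05.

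Of the 12 member probe sets, 1 passed in untreated mice, that of Ctsl, beside 11.9% of all probe sets. The same 1 passed for the genotype effect averaged over treatment, beside 6.61% of all. None passed in treated mice, for treatment in either genotype, for the averaged treatment effect or for the interaction, by the same limma fit. The median log2 change of the 7 genes, each read by its brightest probe set, was -0.08 in untreated mice and 0.05 in treated mice, beside 0.04 and 0.03 over all probe sets. For treatment it was 0.09 in R6/2 mice and -0.04 in wild type mice, beside 0.02 and 0.01. In untreated mice 2 of the 7 genes had a positive and 5 a negative genotype difference, and in treated mice 6 had a positive and 1 a negative one. For treatment, 5 were positive and 2 negative in R6/2 mice, and 1 was positive and 6 negative in wild type mice. In none of these comparisons did all 7 genes share a direction.

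**Figure D1:**
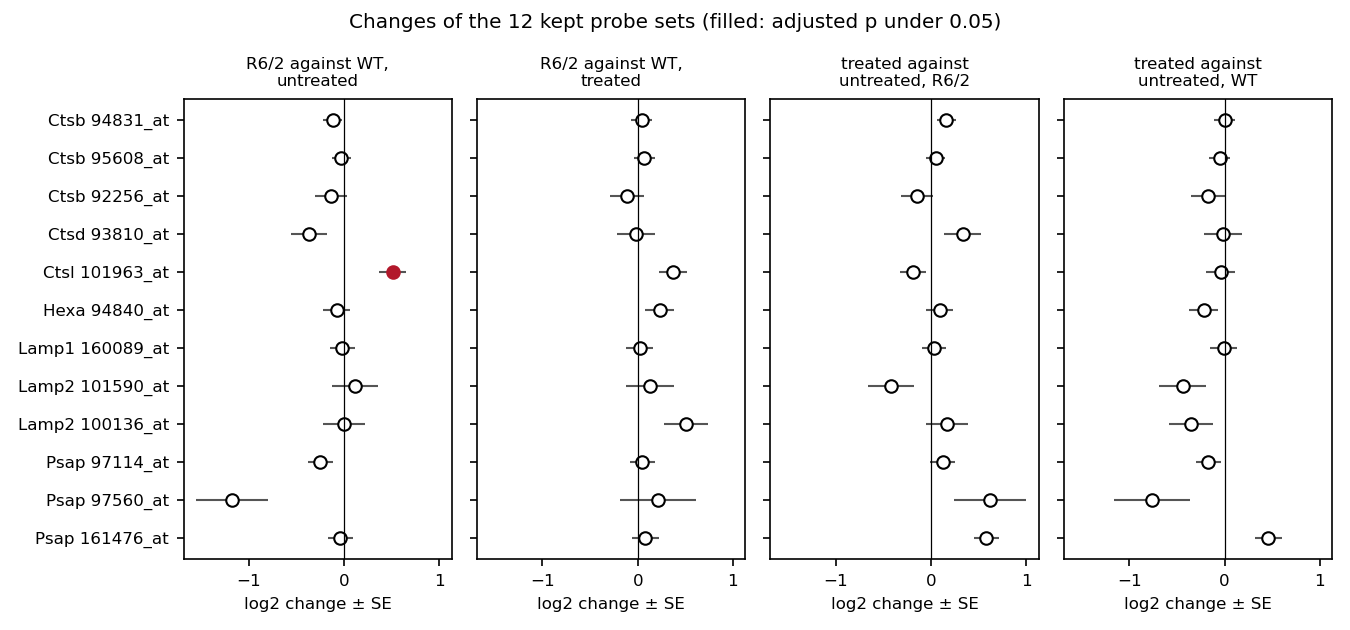
Log2 change with its standard error (x axis) for the 12 member probe sets (y axis) in 4 comparisons: R6/2 against wild type without and with treatment, and treated against untreated mice of each genotype. The filled point, Ctsl in untreated mice at 0.51, is the one with an adjusted p under 0.05. The widest bars belong to Psap probe set 97560_at, and probe set 161476_at lies to the right of 0 in both treatment panels.

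Ctsl (chr13:64361890-64370772) was read by probe set 101963_at. Its signal was 182.9, 164.9 and 168.4 in untreated wild type mice and 151.5, 177.9 and 172.0 in treated wild type mice. It was 200.2, 242.5, 298.4 and 247.3 in untreated R6/2 mice and 228.6, 229.6 and 189.4 in treated R6/2 mice. All 7 R6/2 arrays (189.4 to 298.4) lay above all 6 wild type arrays (151.5 to 182.9), a separation that 3.81% of all probe sets showed in 1 direction or the other.

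Ctsl rose in untreated R6/2 mice to 247 ± 40.2 (SD, n = 4), against 172 ± 9.54 (SD, n = 3) in wild type, which is 1.42-fold or 0.51 ± 0.14 on the log2 scale (SE, limma adjusted p = 0.0319). With treatment the signal was 216 ± 22.9 (SD, n = 3) for R6/2 against 167 ± 13.9 (SD, n = 3), a log2 difference of 0.37 ± 0.15 (adjusted p = 0.44). The 2 differences were not told apart by the interaction, which was -0.14 ± 0.2 (SE, adjusted p = 0.765). Averaged over treatment the genotype effect was 0.44 ± 0.1 (SE, adjusted p = 0.0186). Treatment moved the signal by -0.19 ± 0.14 in R6/2 and -0.04 ± 0.15 in wild type mice, neither past the test.

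The size of the Ctsl change rested partly on the arrays that stood apart. Without untreated R6/2 arrays 2 and 3 the difference in untreated mice was 0.37 (adjusted p = 0.17), and with untreated R6/2 array 1 alone it was 0.22 (adjusted p = 0.578). The averaged effect without arrays 2 and 3 was 0.37 (adjusted p = 0.0369). In untreated mice the call was also lost when any 1 untreated wild type array, or untreated R6/2 array 2 or 3, was left out (adjusted p = 0.0646 to 0.111). It was lost too with arrays scaled to 1 median (adjusted p = 0.0554) and with the compared groups fitted alone (adjusted p = 0.0841). The averaged call was lost without untreated wild type array 2 (0.0527) or 3 (0.0505) or treated R6/2 array 1 (0.0553). In whole hemispheres, a change in the number of cells of a type and a change in RNA per cell cannot be told apart.

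Ctsd (chr7:142375910-142387827), the member whose promoter holds the longer palindrome, was read by probe set 93810_at. The signal was 666.0, 721.4 and 737.9 in untreated wild type mice, 706.0, 705.3 and 690.1 in treated wild type mice and 690.6, 717.6 and 662.8 in treated R6/2 mice. In untreated R6/2 mice it was 704.6, 539.4, 346.6 and 688.2. Arrays 2 and 3 of that group gave the lowest signals of the 13, while arrays 1 and 4 lay within the wild type range. The genotype difference in untreated mice was -0.37 ± 0.19 (SE, adjusted p = 0.199), and without arrays 2 and 3 it was -0.02 ± 0.09. In treated mice it was -0.02 ± 0.2. No comparison of Ctsd passed the test.

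Ctsb (chr14:63122462-63145923) had 3 kept probe sets, and none of them passed in any of the 7 comparisons. Probe set 94831_at read 818.5, 885.8 and 1067.6 in untreated and 911.8, 958.0 and 889.8 in treated wild type mice. In R6/2 mice it read 895.2, 796.3, 820.3 and 868.8 untreated and 939.4, 941.8 and 952.9 treated. All 3 treated R6/2 arrays lay above all 4 untreated ones, by 0.16 ± 0.1 on the log2 scale (SE, adjusted p = 0.413), or by 0.1 ± 0.11 without untreated arrays 2 and 3. These 2 groups were as cleanly separated in 10.6% of all probe sets.

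Probe set 95608_at of Ctsb was the steadiest member, at 114.5 to 128.9 over the 13 arrays, with log2 differences of -0.05 to 0.07 in the 4 comparisons of single groups. Probe set 92256_at read 58.8 to 105.8, with differences of -0.17 to -0.11 in the same comparisons and standard errors of 0.17 to 0.18. The probe set below the filter, 162271_f_at, read 3.5 to 26.8, and without the filter it passed no comparison. Thus no Ctsb probe set gave a genotype or treatment difference that passed the test.

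Hexa (chr9:59539540-59565109) was read above the filter by probe set 94840_at. The signal was 95.7, 109.3 and 106.6 in untreated wild type mice and 88.8, 83.5 and 94.2 in treated wild type mice. In R6/2 mice it was 97.1, 112.6, 76.3 and 110.1 untreated and 104.1, 108.0 and 99.9 treated. The treated wild type arrays lay below both the untreated wild type and the treated R6/2 arrays without overlap. The log2 differences were -0.22 ± 0.15 for treatment in wild type mice (SE, adjusted p = 0.63) and 0.23 ± 0.15 for genotype in treated mice (SE, adjusted p = 0.773). Groups without overlap were found for 21.8% of all probe sets in the first of these comparisons and for 16.8% in the second. The other Hexa probe set, 162488_at, lay at 1.1 to 6.5 and passed no comparison when the filter was lifted.

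Lamp1 (chr8:13159161-13175338), the member with 4 copies of CACGTG, read by probe set 160089_at, was at 995 ± 110 (SD, n = 3) in wild type mice left untreated and at 990 ± 104 (SD, n = 3) in those treated. For R6/2 mice the values were 988 ± 139 (SD, n = 4) and 998 ± 35.6 (SD, n = 3). The lowest of the 13 values, 797.2, came from untreated R6/2 array 3 and the highest, 1121.2, from untreated R6/2 array 4. The 4 differences between single groups ran from -0.02 to 0.03 with standard errors of 0.13 to 0.14. No Lamp1 difference exceeded the spread between arrays.

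Lamp2 (chrX:38399647-38456460) was read by 2 probe sets that followed different patterns. Probe set 101590_at read 132.8, 115.2 and 131.8 in untreated and 113.5, 96.2 and 74.7 in treated wild type mice. It read 98.4, 189.4, 189.4 and 97.4 in untreated R6/2 mice, where arrays 2 and 3 gave the highest values of all 13, and 95.4, 98.8 and 112.3 in treated R6/2 mice. In wild type mice the treated arrays lay below the untreated ones without overlap, and 21.8% of all probe sets had no overlap there in either direction.

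The treatment difference of 101590_at was -0.44 ± 0.25 in wild type mice (SE, adjusted p = 0.565) and -0.42 ± 0.24 in R6/2 mice (SE, adjusted p = 0.361). Without untreated R6/2 arrays 2 and 3 the R6/2 difference was 0.06 ± 0.17, and the genotype difference in untreated mice went from 0.11 ± 0.24 to -0.37 ± 0.17 (adjusted p = 0.269). Probe set 100136_at read 42.3 to 53.9 in untreated and 30.6 to 46.4 in treated wild type mice, 33.8 to 52.4 in untreated and 44.0 to 65.7 in treated R6/2 mice. Its genotype difference was 0 ± 0.22 in untreated and 0.51 ± 0.23 in treated mice (SE, adjusted p = 0.527 for the second), and its treatment difference was 0.17 ± 0.22 in R6/2 and -0.35 ± 0.23 in wild type mice. Neither Lamp2 probe set passed any comparison.

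**Figure D2:**
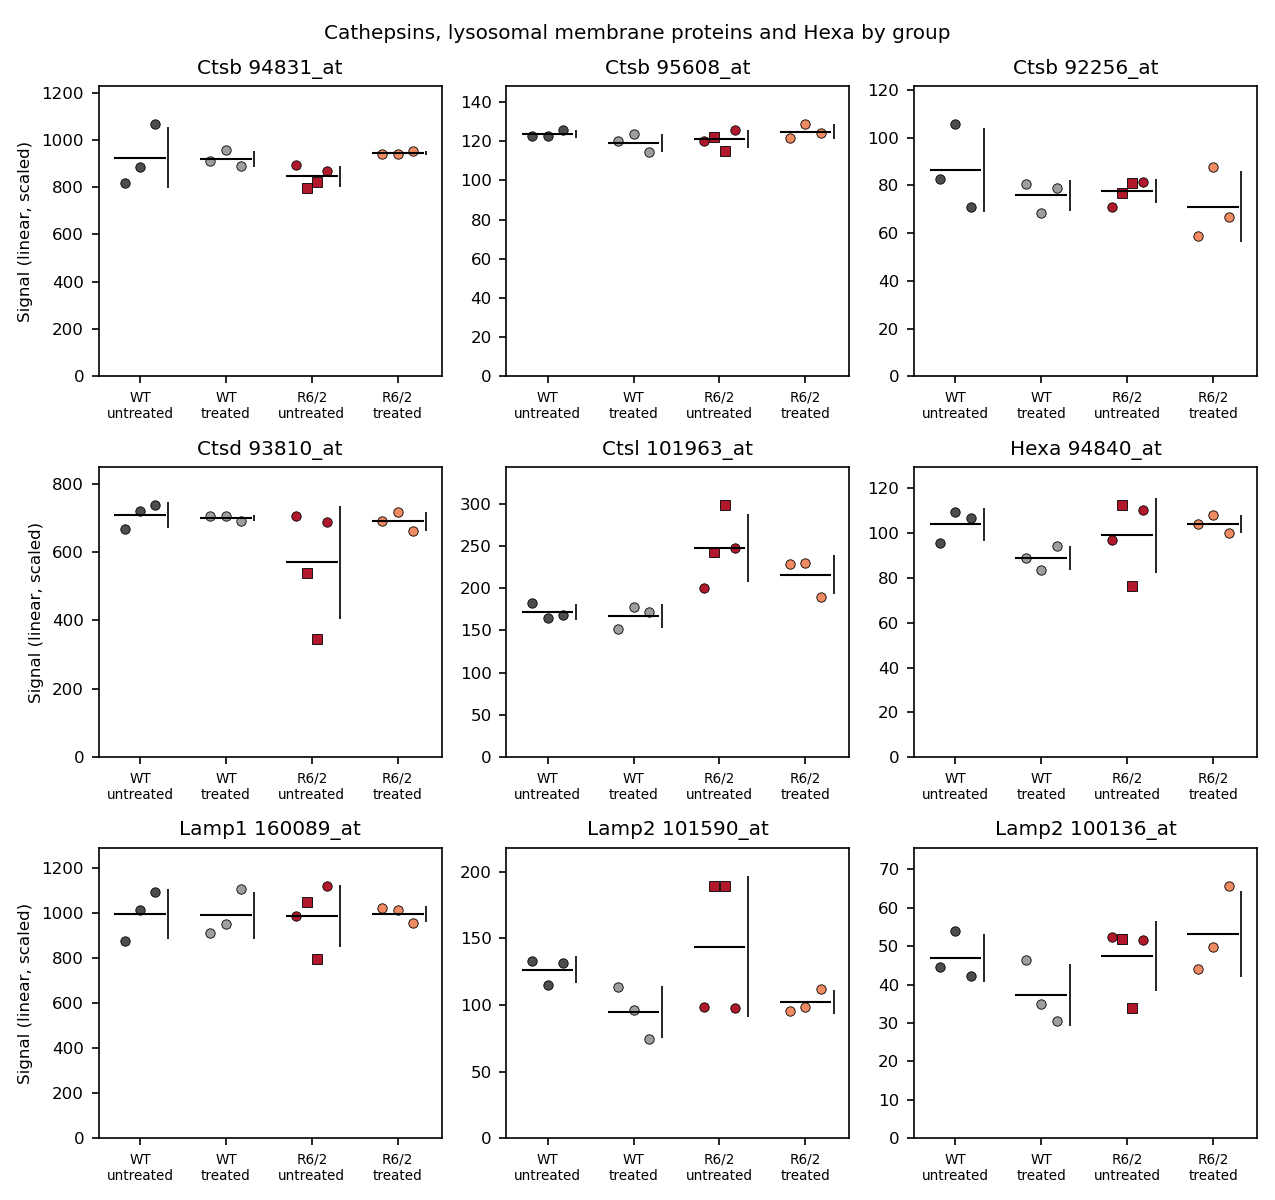
Signal per array (y axis, linear scale from 0) in the 4 groups (x axis) for the 9 kept probe sets of the cathepsins, Hexa, Lamp1 and Lamp2. Points are arrays, squares are untreated R6/2 arrays 2 and 3, black lines are group means and side bars are ± 1 SD. The Ctsl panel shows every R6/2 array above 182.9, the highest wild type array, and the squares are lowest for Ctsd and highest for Lamp2 101590_at.

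Psap (chr10:60277628-60302600) was read by 3 probe sets, all above the filter. They were compared by their changes, because signals of different probe sets are not on a common scale. In untreated R6/2 mice 97560_at was fitted at 0.441 of its wild type level, with a spread that left it outside the threshold, and the other 2 were fitted at 0.841 and 0.972. With treatment 161476_at was higher in both genotypes without overlap, and the other 2 were not. In wild type mice 97560_at was lower with treatment, also without overlap. Of all probe sets, 21.8% had no overlap with treatment in wild type mice and 10.6% in R6/2 mice, in either direction. None of the 3 passed any of the 7 comparisons over all probe sets.

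Probe set 97114_at read 1262.5, 1633.6 and 1575.6 in untreated and 1209.1, 1222.8 and 1531.0 in treated wild type mice. In R6/2 mice it read 1236.2, 1272.4, 1117.3 and 1372.0 untreated and 1311.7, 1513.1 and 1262.4 treated. All 4 groups overlapped. The genotype difference in untreated mice was -0.25 ± 0.13 (SE, adjusted p = 0.196), the treatment difference was 0.12 ± 0.13 in R6/2 and -0.17 ± 0.13 in wild type mice, and the genotype difference in treated mice was 0.05 ± 0.13.

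Probe set 97560_at read 239.0, 287.8 and 224.3 in untreated and 107.7, 174.4 and 167.6 in treated wild type mice. In R6/2 mice it read 165.6, 81.2, 50.0 and 216.3 untreated and 136.4, 200.2 and 177.5 treated. All 3 untreated wild type arrays lay above every other array, and the lowest 2 values were those of untreated R6/2 arrays 2 and 3. Of all probe sets, 26.2% showed no overlap between the untreated genotypes, and 21.8% showed none between treated and untreated wild type mice.

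Untreated, 97560_at averaged 128 ± 76.3 (SD, n = 4) in R6/2 against 250 ± 33.2 (SD, n = 3) in wild type, a log2 difference of -1.18 ± 0.38 (SE, adjusted p = 0.0546). Without arrays 2 and 3 it was -0.4 (adjusted p = 0.363). Leaving out array 1 or 4 of the same group gave -1.38 (adjusted p = 0.0288) and -1.51 (adjusted p = 0.0112), which pass. In treated mice the difference was 0.21 ± 0.4. The treatment difference was 0.62 ± 0.38 in R6/2 mice (adjusted p = 0.388) and -0.76 ± 0.4 in wild type mice (adjusted p = 0.527), and the interaction was 1.39 ± 0.55 (SE, adjusted p = 0.319). Without untreated R6/2 arrays 2 and 3 the R6/2 treatment difference turned to -0.16 ± 0.22 and the interaction was 0.6 ± 0.3 (SE, adjusted p = 0.589).

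Probe set 161476_at was higher in every treated array than in any untreated one. It read 127.0, 105.7 and 108.1 in untreated and 143.2, 175.8 and 151.3 in treated wild type mice. It read 126.4, 106.4, 103.7 and 105.1 in untreated and 170.8, 152.2 and 172.3 in treated R6/2 mice. All 6 treated arrays (143.2 to 175.8) lay above all 7 untreated arrays (103.7 to 127.0), which 24 of the 7453 probe sets, 0.322%, showed in 1 direction or the other. Psap was chosen with a treatment difference of 1 of its probe sets already known. This share, and the rank and treatment p-values given below for the Psap probe sets, are therefore descriptions and not independent support.

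The treatment difference of 161476_at was 0.58 ± 0.13 in R6/2 mice (SE, adjusted p = 0.246), where the group means were 110 ± 10.7 (SD, n = 4) and 165 ± 11.2 (SD, n = 3). It was 0.46 ± 0.14 in wild type mice (SE, adjusted p = 0.318), where they were 114 ± 11.7 (SD, n = 3) and 157 ± 17 (SD, n = 3). Averaged over genotype it was 0.52 ± 0.09, or 1.44-fold, which ranked as the third of all 7453 probe sets by p-value in limma (adjusted p = 0.125). The smallest adjusted p of any probe set in that comparison was also 0.125. The genotype differences were -0.04 ± 0.13 untreated and 0.08 ± 0.14 treated.

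The averaged difference of 161476_at was 0.42 to 0.57 under the 23 other ways of processing tried. It passed in 2 of them, with arrays weighted by their quality (0.57, adjusted p = 0.0276) and without untreated R6/2 array 1 (0.56, adjusted p = 0.0199). The descriptions give untreated R6/2 array 4 and treated R6/2 array 1 the same lot number, but the title of the second carries another number, so whether they share a lot is unsure. Between them 161476_at was 105.1 and 170.8, a log2 difference of 0.7.

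**Figure D3:**
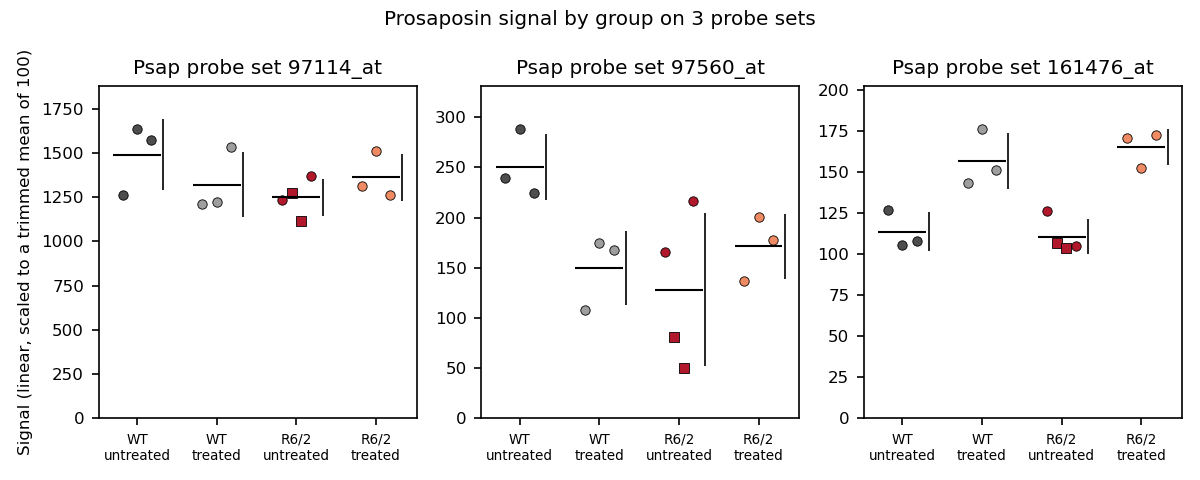
Signal per array (y axis, linear scale from 0) for the 3 Psap probe sets in the 4 groups (x axis), with group means as black lines and ± 1 SD as side bars. Squares are untreated R6/2 arrays 2 and 3. Probe set 97560_at is highest in untreated wild type mice and lowest in the squares, and for 161476_at every treated array is above 127.0, the highest untreated one.

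Whether the 3 Psap probe sets changed differently was tested directly. For each pair, the difference of the log2 signals within an array was compared between groups by a two-sided exact permutation test, in 6 comparisons per pair and 18 tests in all. None of the 18 had an adjusted p under 0.05, but not all of them could. For genotype in treated mice and treatment in wild type mice the smallest possible p is 0.1, so these tests could not pass. For genotype in untreated mice and treatment in R6/2 mice it is 0.0286, which passes only if most of the 18 tests are as small. The smallest p was for 97114_at against 161476_at with treatment averaged over genotype, where the difference moved by -0.55 (exact permutation p = 0.00857 over 700 reassignments, Benjamini-Hochberg adjusted p = 0.154). For 97560_at against 161476_at with treatment in wild type mice it moved by -1.23 (exact permutation p = 0.1, which is as low as this number of arrays allows). For the same pair with genotype in untreated mice it moved by -1.14 (exact permutation p = 0.114, where 0.0286 is the smallest possible). The patterns of the 3 probe sets are thus described as different in these arrays, and the differences did not pass the test. A treatment difference of a Psap probe set was known when Psap was chosen, so the treatment comparisons are not independent support.

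Over the 13 arrays, on the log2 scale, 97114_at and 97560_at had a Pearson r of 0.68, while 161476_at had r of -0.14 with the first and 0.13 with the second. These are descriptions, since the arrays share groups. The probe sets most like 97114_at over the same 13 arrays were those of Prkar1b (r = 0.932), Grina (0.898), Dbndd2 (0.894), Tnk2 (0.894) and Ptov1 (0.866). After subtraction of the group means they were those of Pigs (0.958), Prkar1b (0.944), Id3 (0.926), Gps1 (0.923) and Usp10 (0.923), so Prkar1b was the gene found by both measures.

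The rest of the lysosomal system was read through 8 lists with 114 genes, of which 85 had a probe set of their own and 72 passed the filter, each read by its brightest probe set. In untreated mice 4 of the 72 were higher and 4 lower in R6/2, which is 8 beside a background of 11.9%, and their median was -0.01. In treated mice none passed and the median was 0.06. Averaged over treatment 2 were higher, Ctss and Atp6ap1, and none lower, beside a background of 6.61%. No gene of the lists passed for treatment or for the interaction.

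Among 10 further lysosomal proteases 1 rose, Ctss, which encodes cathepsin S, a cysteine protease of microglia and other antigen-presenting cells. It read 269.0, 355.4 and 371.6 in untreated and 328.0, 344.9 and 330.5 in treated wild type mice. It read 379.0, 603.1, 680.1 and 547.9 in untreated and 416.1, 466.4 and 419.5 in treated R6/2 mice. As for Ctsl, every R6/2 array lay above every wild type array, and 3.81% of all probe sets were so separated in 1 direction or the other. The change was 0.72 ± 0.17 in untreated mice (SE, adjusted p = 0.0198) and 0.55 ± 0.13 averaged over treatment (SE, adjusted p = 0.0184), and without untreated R6/2 arrays 2 and 3 these were 0.47 (adjusted p = 0.146) and 0.42 (adjusted p = 0.0438).

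Of 8 kept microglial markers, which include Cx3cr1, Csf1r, C1qa and Tyrobp, none passed in any comparison. Their summed signal was 932.5 to 1081.2 in untreated and 930.5 to 1024.6 in treated wild type mice, and 858.4 to 1022.6 in untreated and 967.3 to 1066.1 in treated R6/2 mice. Endothelial markers, none of 7 past the test, summed to 282 to 323.1 and 292.3 to 307.3 in untreated and treated wild type mice. They summed to 328.4 to 368.6 and 336.5 to 391.3 in untreated and treated R6/2 mice, above all wild type arrays. Their part in the Ctsl and Ctss results was not tested.

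Some markers of 3 other cell types passed as lower in untreated R6/2 mice and none as higher, with 4 of 7 for oligodendrocytes, 4 of 10 for neurons and 2 of 7 for astrocytes. The median log2 difference was -0.55 for oligodendrocytes and -0.4 for neurons but 0.18 for astrocytes, of whose 7 markers 4 had a positive difference. The summed oligodendrocyte signal was 4039.6 to 4466.3 in untreated wild type and 2380.7 to 3053.4 in untreated R6/2 mice, and the neuronal sum was 10500 to 10750.1 against 8278.2 to 9322.1. Red blood cell markers had 1 of 3 lower, and none of 3 choroid plexus markers passed. Beside these counts, 11.9% of all 7453 probe sets passed in untreated mice, 478 as lower and 409 as higher in R6/2. The part of these cell types in the lysosomal values was not tested.

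Among lysosomal membrane proteins 1 of 13 rose, Laptm4a, a small protein of late endosomes and lysosomes. Without treatment it was at 1258 ± 184 (SD, n = 4) in R6/2 against 923 ± 36 (SD, n = 3), a change of 0.44 ± 0.11 (SE, adjusted p = 0.026). Among glycosidases and sulfatases 1 of 13 rose and 1 fell. Sumf1, the enzyme that activates sulfatases, rose by 0.69 ± 0.21 (SE, adjusted p = 0.0498), at a signal of 24 ± 1.81 in wild type, near the filter. Arsa, arylsulfatase A, which degrades sulfatide, changed by -0.43 ± 0.13 (SE, adjusted p = 0.0442). Zkscan3, a repressor of lysosomal and autophagy genes and the only kept gene of 5 transcription factors, rose by 0.4 ± 0.11 (SE, adjusted p = 0.0399). Tfeb itself lay below the filter.

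Among sorting receptors and mannose 6-phosphate genes 2 of 11 fell. Sorl1, a sorting receptor between the Golgi and endosomes, was at 47.3 ± 19.8 (SD, n = 4) in untreated R6/2 against 106 ± 25.3 (SD, n = 3) in untreated wild type mice, a change of -1.22 ± 0.3 (SE, adjusted p = 0.0226). Gga1, an adaptor that loads mannose 6-phosphate receptors into vesicles, changed by -0.87 ± 0.22 (SE, adjusted p = 0.0248). Of 15 V-ATPase subunits Atp6v0a1 fell in untreated mice, by 0.94 ± 0.29 on the log2 scale (SE, adjusted p = 0.0475). Its signals in untreated R6/2 mice were 547.9, 277.3, 201.9 and 593.0, so that arrays 2 and 3 were lowest as for Ctsd, and without them the change was -0.31 (adjusted p = 0.243).

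The accessory V-ATPase subunit Atp6ap1 was higher averaged over treatment, by 0.27 ± 0.08 (SE, adjusted p = 0.0481). R6/2 arrays were at 618.8 to 739.2 and wild type arrays at 513.3 to 610.4. Such a separation was shown by 3.81% of all probe sets in 1 direction or the other. None of the 7 lipid and other hydrolases and neither of the 2 cathepsin inhibitors passed. Gm2a, the activator that works with Hexa on GM2, was at -0.53 ± 0.18 in untreated mice (SE, adjusted p = 0.0602), or -0.24 ± 0.15 without untreated R6/2 arrays 2 and 3. Ppt2, a thioesterase, was at 0.22 ± 0.15, or 0.42 ± 0.15 without them (adjusted p = 0.157). The cystatins Cst3 and Cstb, which inhibit cysteine cathepsins, were at -0.01 ± 0.15 and 0.2 ± 0.1.

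Each of the 8 calls in untreated mice was lost without untreated R6/2 arrays 2 and 3, which also leaves fewer arrays, and the differences kept their sign. Beside Ctss and Atp6v0a1 above, they were 0.33 ± 0.09 for Laptm4a, 0.59 ± 0.26 for Sumf1, 0.34 ± 0.12 for Zkscan3 and -0.38 ± 0.15 for Arsa. For Sorl1 the difference was -0.83 ± 0.32 and for Gga1 -0.63 ± 0.18. In treated mice, where none passed, the genotype difference was 0.14 ± 0.12 for Laptm4a, -0.09 ± 0.23 for Sumf1, -0.03 ± 0.12 for Zkscan3 and 0.21 ± 0.14 for Arsa. It was 0.03 ± 0.32 for Sorl1, -0.19 ± 0.24 for Gga1, 0.25 ± 0.31 for Atp6v0a1 and 0.37 ± 0.18 for Ctss. For treatment in wild type mice Arsa and Sorl1 were at -0.59 ± 0.14 (SE, adjusted p = 0.254) and -1.09 ± 0.32 (SE, adjusted p = 0.319), neither past the test.

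**Figure D4:**
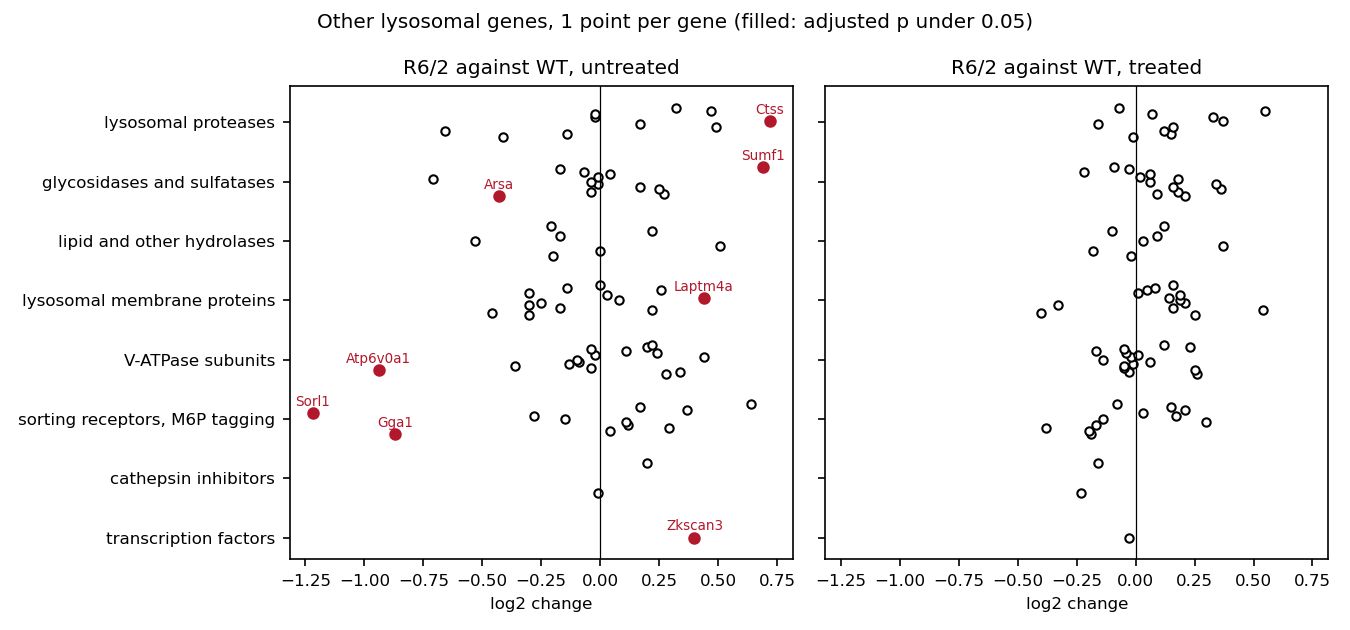
Log2 change of R6/2 against wild type (x axis) for the 72 kept genes of 8 lysosomal lists (y axis), 1 point per gene, in untreated mice on the left and treated mice on the right. Filled and named points have an adjusted p under 0.05. The left panel holds 4 named points on each side of 0 and the right panel none.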

How the data were processed

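The authors' deposited table holds intensities on a linear scale for 12488 probe sets and 13 arrays, scaled so that each array's mean after trimming 2% at each end is about 100. The software that made them is not given in the sources used here, and arrays give no read depth, so their number limits the precision. Groups came from the sample titles. Values under 3.1 (the 10th percentile) were set to 3.1 and log2 was taken. Controls (66) were left out, and a probe set was kept if its mean log2 reached the 40th percentile, a signal of 24.9, which left 7453. Genes came from the array's annotation table, in which 10833 probe sets had 1 gene, 396 several and 1193 none. Gene positions and promoter windows came from RefSeq on GRCm38.p6; 6 of the 7 members had a window.

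Means of the 4 groups were fitted with limma 3.58.1 in R 4.3.3 over all 13 arrays (9 residual degrees of freedom) with an intensity trend, with Benjamini-Hochberg adjustment over all kept probe sets. The fit was tested on simulated data. Psap probe sets were compared with exact permutation tests in Python 3.11.15 and scipy 1.17.1. All member probe sets are named, and in the other lysosomal lists all genes past 0.05 in any comparison, or else the 2 with the smallest p. The genes most like Psap are the 5 with the highest r to its brightest probe set. Members and lists were chosen with earlier results of these data known, among them a treatment difference of a Psap probe set. The alternatives changed scaling, floor, filter, variance model and the arrays used.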

Additional observations from a re-analysis of the deposited data

Results flagged for a closer look

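In the untreated R6/2 group, the only one with 4 arrays, the highest or lowest array was set apart from the others by Dixon's test (a ratio above 0.829) in 4 of 27 probe sets tested. For independent tests chance gives about 1 in 20, but these probe sets share the same 4 arrays. Laptm4a and Zkscan3 below were also named because they passed a comparison that uses this group. The share over all probe sets was not counted, so 4 of 27 is a description. The array at 33.8 was low for Lamp2 probe set 100136_at (ratio 0.962), where the others read 51.7 to 52.4. The array at 126.4 was high for Psap probe set 161476_at (ratio 0.881), where the others read 103.7 to 106.4. For Laptm4a the array at 1533.6 was high (ratio 0.96), and for Zkscan3 the array at 146.6 was high (ratio 0.853). The values for Lamp2, Laptm4a and Zkscan3 come from untreated R6/2 array 3, and that for Psap from array 1.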

How the results depend on the processing

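The number of member probe sets past the threshold was 1 for genotype in untreated mice. It was 2 with a floor of 20, with log2(value + 16) and with a filter at the 60th percentile, and 0 without untreated R6/2 arrays 2 and 3, with array 1 alone and with only the compared groups fitted. Leaving out 1 array gave 0 to 2. For the averaged genotype effect it was 1, with 0 for array 1 alone and 0 to 1 leaving out 1 array. For treatment in wild type mice it was 0, with 1 under array weights, and for averaged treatment 0, with 1 under array weights and 0 to 1 leaving out 1 array. For treatment in R6/2 mice it was 0, with 0 to 1 leaving out 1 array. It stayed at 0 for genotype in treated mice, for the interaction and for the Psap probe set differences in every alternative run. Some of the Psap difference tests could not pass with so few arrays, so their 0 is not evidence of equal change. There were 4111 alternative values of 175 single log2 changes, and most of the 175 were not called in the main fit. Of the 4111, 3864 kept their side of the threshold and, where not called, moved by less than the error. A call was gained by 32, 94 moved further, no called value reversed and 250 uncalled values changed sign. The 121 lost calls all came from the few changes called in the main fit. In untreated mice these were Ctsl and, of the lists, 4 genes higher and 4 lower. For the averaged genotype effect they were Ctsl and 2 list genes. The fit with array 1 alone was chosen after seeing the data. No paired analysis was possible because the labels give no replicate numbers. A lot number as a block leaves no residual degrees of freedom.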
